A study of Homo sapiens with 6 samples.

Results

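Histone genes were followed in MOLM-13, a human acute myeloid leukaemia cell line that carries the MLL-AF9 translocation, after knockdown of LAMP5. The members were all rows of the deposited expression table that map to a protein-coding core or linker histone symbol, with the older HIST1, HIST2, H1F, H2AF and H3F names accepted and pseudogenes left out. Of 82 such symbols, 47 had a row among the 39771 in the table: 35 replication-dependent genes and 12 variant genes. The other 35 symbols, all replication-dependent, were not analysed here. RNA sequencing gave 6 libraries, each named for its group and the number in its title. Per the labels' protocols, cells were transduced with a lentivirus encoding either a hairpin against LAMP5 (4 libraries, called shLAMP5) or a control hairpin with no target (2 libraries, called shNT) and then selected with puromycin, so both groups carry a hairpin vector and saw the drug. The sources used here do not give the hairpin sequence or the harvest time of each shLAMP5 library, nor whether replicate libraries stem from separate cultures. A p-value therefore reflects only how much these 6 libraries vary, and that variation may be technical. All libraries come from 1 cell line. The design text asks which genes differ after LAMP5 knockdown.

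Histones package DNA: H2A, H2B, H3 and H4 form the core of the nucleosome, and linker H1 binds the DNA between cores. Replication-dependent histone genes are transcribed mainly in S phase, when new DNA has to be wrapped. Their mRNAs lack introns and usually end in a conserved stem-loop instead of a poly(A) tail. SLBP binds that stem-loop, and the mRNAs are degraded when DNA synthesis stops. Some of these genes also make polyadenylated transcripts in cells that differentiate or stop dividing. Most variant histone genes, though not all, are expressed through the cell cycle and have only ordinary polyadenylated mRNAs. Variants are often deposited by dedicated chaperones, for example H2A.Z at promoters and H3.3 in transcribed chromatin. Whether the libraries were made from poly(A)-selected RNA is not stated in the labels' protocols, which name a TruSeq RNA kit and total RNA as the starting material.

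The stem-loop is typical of the replication-dependent class, so its forms are shown first, as read from GENCODE release 29 transcripts of the members. A stem-loop that departs from the consensus searched for, or that lies past the end of a transcript model, would be missed. A search for the histone stem-loop consensus, on the strand of the transcript, found it in 15 of the 35 replication-dependent members, in 0 of the 12 variant members and in 0.122% of 19684 coding genes. The letters below run 5′ to 3′, with the 4-base loop in capitals and the paired arms in lower case.
H2A, H2B and H3 form: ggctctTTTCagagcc
H4 form: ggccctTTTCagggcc
H2AC11 form: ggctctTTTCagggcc
The first form was present in 11 members (4 H2A, 5 H2B and 2 H3 genes) and the H4 form in H4C11, H4C16 and H4C8. How far an annotated transcript runs past the stem-loop differed widely. It ran on for 6 bases in H4C11, 35 in H2AC18, 39 in H2AC13 and 40 in H2BC13, but for 1114 bases in H2AC6, 1479 in H2BC18, 1729 in H2BC21 and 1761 in H2AC11. The models of the other 20 replication-dependent members, among them H2BC12 (381 bases) and H1-2 (642 bases), held no match to the consensus. Several are short, such as H2AC20 (390 bases) and H3C4 (411 bases), and a model that stops before the stem-loop cannot show it. The lack of a match therefore does not mean that the gene lacks a stem-loop. The sources used here do not name the transcript set behind the deposited values, which may differ from these models.

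Promoters are printed for 4 members whose values carry the results below. H2BC12 was the member with the smallest p among the higher values and H2AZ1 among the lower values. H2BC21 and H2AC6 each share a head-to-head promoter with another member. Each line gives the 250 bases before the start site in RefSeq (GRCh38.p14), 5′ to 3′ on the strand of the gene. Capitals mark 3 motifs on either strand: the CCAAT box, the TATA box searched as TATAAA, and the octamer searched as ATTTGCAT. In the H2BC12 line a TATA box overlaps its own reverse complement.
H2BC12, chr6:27146859-27147108, minus strand: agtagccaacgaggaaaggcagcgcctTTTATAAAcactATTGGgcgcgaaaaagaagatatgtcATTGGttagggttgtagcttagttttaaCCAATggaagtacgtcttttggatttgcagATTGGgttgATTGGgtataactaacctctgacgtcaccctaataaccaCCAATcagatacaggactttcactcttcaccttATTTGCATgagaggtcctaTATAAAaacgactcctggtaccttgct
H2BC21, chr1:149886683-149886932, minus strand: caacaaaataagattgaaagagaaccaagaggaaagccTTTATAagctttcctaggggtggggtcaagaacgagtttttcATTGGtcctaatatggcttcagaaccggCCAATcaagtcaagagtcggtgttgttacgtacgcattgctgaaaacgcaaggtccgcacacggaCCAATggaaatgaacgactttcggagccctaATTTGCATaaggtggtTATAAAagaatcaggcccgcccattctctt
H2AC6, chr6:26123922-26124171, plus strand: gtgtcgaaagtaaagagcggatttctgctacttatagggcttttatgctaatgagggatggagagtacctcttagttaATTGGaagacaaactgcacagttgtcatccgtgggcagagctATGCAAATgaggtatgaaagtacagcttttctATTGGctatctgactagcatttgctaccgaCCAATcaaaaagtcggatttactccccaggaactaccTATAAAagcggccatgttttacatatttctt
H2AZ1, chr4:99950276-99950525, minus strand: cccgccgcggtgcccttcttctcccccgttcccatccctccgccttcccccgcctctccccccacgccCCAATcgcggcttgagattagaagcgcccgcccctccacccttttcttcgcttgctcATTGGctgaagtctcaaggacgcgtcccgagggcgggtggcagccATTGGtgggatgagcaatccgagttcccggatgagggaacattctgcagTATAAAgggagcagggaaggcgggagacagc
H2BC12 held 6 CCAAT, 3 TATAAA and 1 ATTTGCAT, and H2BC21 held 3, 2 and 1. Among the members with measurable expression, a RefSeq window from 250 bases before to 50 after the start was found for 26 replication-dependent and 8 variant genes. CCAAT was present in 23 of the 26 (88.5%), against 34.6% of all 35116 windows of that length. TATAAA was present in 18 (69.2%, against 11.5%). ATTTGCAT was present in 11 (42.3%, against 1.77%): in 5 of 8 H2A, 5 of 8 H2B and 1 of 4 H3 windows. The windows are not independent. H3C4 and H2AC7 have the same window, and those of head-to-head pairs overlap, so the same motif can be counted for more than 1 gene. No H4 or H1 window held the octamer, and no H4 window held CCAAT. Of the 8 variant windows, 6 held CCAAT, 4 TATAAA and 1 (H3-3B) the octamer. These are matches of letters and not measured binding sites.

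The level of a gene is given in TPM (an abundance per transcript length, scaled to a fixed total per library), so levels can be set side by side between genes. Differences were tested with limma on log2(TPM + 1) over the 13072 genes that reached 1 TPM in 2 or more libraries. A log2 fold change is the shLAMP5 mean minus the shNT mean on that scale. LAMP5 itself measured 170 and 282 TPM in the shNT libraries and between 65.6 and 86.7 TPM in the shLAMP5 libraries, in the direction of the labels (log2 fold change -1.54, limma adjusted p 0.252, and 0.0302 with library weights). Read depth is unknown. The 15 myeloid markers looked up were all present, with PTPRC, CD33, SPI1 and CSF1R between 8.33 and 466 TPM in every library. CD3E, HBB and PF4, which define T, erythroid and megakaryocytic cells, stayed at or below 0.209 TPM, but CD3D, another T cell marker, measured 1.64 to 8.41 TPM and was highest in shLAMP5 3. Libraries of a group stood apart from each other. The median over all tested genes was lowest in shLAMP5 2, whose median scaling factor was 1.14 against 0.955 to 1.01 elsewhere, and limma gave that library the lowest weight, 0.193. The highest weight went to shLAMP5 4, at 3.41 against 1.54 in shLAMP5 1 and 0.503 in shLAMP5 3. Results with library weights therefore lean most on shLAMP5 4. LYZ, a granule protein gene of the myeloid lineage, lay at 1984 TPM in shNT 1 and 1397 in shLAMP5 2 but between 5119 and 9730 in the other 4 libraries.

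No histone gene passed the test at a limma adjusted p of 0.05, among 37 members tested, and neither did any other gene (0% of 13072). The smallest adjusted p of a member was 0.491. At an unadjusted p under 0.05, 4 members were higher, among them H2BC12, H1-2 and H2BC5, where 3.72% of all genes were, and 2 were lower (H2AZ1 and H2AX), where 5.25% of all genes were. The groups did not overlap for 4 members. Every shLAMP5 value exceeded both shNT values for 2 members, H2BC12 among them, as for 8.25% of all genes, and was under both for H2AZ1 and H2AX (2 members), as for 13.5%. These counts rested on single libraries: 14 replication-dependent genes lay above in place of 1 without shNT 1 and 4 without shLAMP5 1, and 4 variants lay below in place of 2 without shLAMP5 1. Non-overlap is easier to meet with a library left out, and the shares of all genes given here are for the full set of libraries. With library weights 1 member, H2BC12, was called, among 210 genes in all. Without a filter on low values 56 genes were called and with a replicate block 16, and 0 members in either case. Of the 28 replication-dependent genes tested 20 had a positive and 8 a negative value (12 and 16 without shNT 2, 11 and 17 with library weights), and the median log2 fold change was 0.29. Of the 9 variant genes tested 3 were positive and 6 negative, with a median of -0.22. Over all tested genes the median was -0.01. The replication-dependent median was 0.70 without shNT 1, -0.11 without shNT 2 and 0.04 without shLAMP5 2, and -0.12 with library weights, so its direction rested on single libraries. The variant median was 0.03 when shNT 1 and shLAMP5 2 were left out together.

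The 35 replication-dependent members with a row together summed to 298 and 156 TPM in shNT 1 and 2, and to 249, 625, 620 and 350 TPM in shLAMP5 1 to 4. The 35 symbols of this class without a row are not in these sums. Both shNT sums fell within or below the range of the shLAMP5 libraries, and shLAMP5 1 lay below shNT 1, so the groups overlapped. Group means were 227 ± 101 TPM (SD, n = 2) for shNT and 461 ± 191 TPM (SD, n = 4) for shLAMP5. On the log2 scale the ratio of the means was 1.02, and it ran from 0.63 without shNT 2 to 1.57 without shNT 1. The variant genes summed to 1564 and 1524 TPM in shNT and to 1355, 1015, 1063 and 1260 TPM in shLAMP5 1 to 4. Here all 4 shLAMP5 sums lay below both shNT sums. The replication-dependent members made up 16% and 9.27% of the summed TPM of the 47 members in shNT 1 and 2, against 15.5%, 38.1%, 36.8% and 21.7% in shLAMP5 1 to 4. These are not shares of all histone mRNA, since replication-dependent genes without a row are left out. In bulk RNA, a different share of cells that express a gene and a different amount of its mRNA per cell cannot be told apart.

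Linker H1 genes of the replication-dependent class differed in level. H1-2, the most abundant of them, measured 26.9 and 9.07 TPM in shNT 1 and 2, against 24.2, 67.5, 62.4 and 35.4 TPM in shLAMP5 1 to 4. The groups overlapped, since shLAMP5 1 lay below shNT 1, and the shNT libraries themselves differed 2.96-fold. Its log2 fold change was 1.41 (SE 0.51, with a 95% interval from 0.23 to 2.60, limma adjusted p 0.524), and it was 2.15 without shNT 1 and 0.68 without shNT 2. H1-4 measured 3.70 and 0.652 TPM in shNT and 0.763, 13.9, 1.24 and 1.10 TPM in shLAMP5 1 to 4. H1-5 measured 2.44 and 1.25 TPM in shNT and 1.63, 11.2, 0.190 and 0.725 TPM in shLAMP5. In both genes shLAMP5 2 stood far above the other 5 libraries, and the log2 fold changes were 0.26 (SE 0.86) and 0.04 (SE 0.82). Without shLAMP5 2 they were -0.46 and -0.66, and with library weights both were negative too.

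Among H2A genes, 4 of 8 tested had positive and 4 negative values. H2AC6 measured 29.2 and 9.12 TPM in shNT 1 and 2, against 20.3, 56.3, 87.7 and 35.7 TPM in shLAMP5 1 to 4. H2AC18 measured 27.3 and 7.40 TPM in shNT, and 10.8, 57.9, 70.6 and 18.8 TPM in shLAMP5. Both were highest in shLAMP5 3 and lowest in shNT 2, and in both the groups overlapped. The log2 fold change of H2AC6 was 1.35 (SE 0.61, limma adjusted p 0.562), and that of H2AC18 was 1.03 (SE 0.78, adjusted p 0.719), which was 0.15 without shNT 2. H2AC18 has a near-identical copy, H2AC19, that was not analysed here, so its value is uncertain. H2AC13, at 5.37 and 1.81 TPM in shNT and 1.94, 12.9, 8.44 and 2.60 TPM in shLAMP5, was highest in shLAMP5 2. H2AC20, at 3.82 and 2.12 TPM in shNT and 0.989, 8.55, 0.998 and 0.937 TPM in shLAMP5, lay below both shNT libraries in all but shLAMP5 2 (log2 fold change -0.41, SE 0.65). H2AC7 went another way, at 4.09 and 3.04 TPM in shNT and 2.38, 0.755, 10.5 and 1.81 TPM in shLAMP5: its lowest library was shLAMP5 2 and its highest shLAMP5 3. H2AC7 and H3C4 have the same start site in RefSeq, and whether this affects how their reads were assigned was not tested.

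All 8 H2B genes tested had positive log2 fold changes, with a median of 0.46, though H2BC11 and H2BC4 had negative ones without shNT 2, H2BC13 and H2BC4 without shLAMP5 2, H2BC4 without shLAMP5 3, and all 3 of these genes with library weights. H2BC12 was the most abundant replication-dependent member with a row in every library and made up 24.3% to 55.6% of the summed TPM of these members. It measured 92.8 and 81.8 TPM in shNT 1 and 2, against 138, 152, 246 and 192 TPM in shLAMP5 1 to 4. Each shLAMP5 library exceeded both shNT libraries, which differed only 1.13-fold from each other. Group means were 87.3 ± 7.74 TPM (SD, n = 2) for shNT and 182 ± 48.3 TPM (SD, n = 4) for shLAMP5. Its log2 fold change was 1.02 (SE 0.26, with a 95% interval from 0.42 to 1.61, limma unadjusted p 0.00427, adjusted p 0.491). Leaving out any 1 library kept it between 0.86 and 1.14. With library weights the limma adjusted p was 0.0469, and under the other alternatives it lay between 0.152 and 1. An exact permutation test on this gene alone (two-sided) gave p = 0.0667, its lower limit with 2 against 4 libraries.

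H2BC5 measured 14.2 and 7.72 TPM in shNT 1 and 2, against 11.9, 38.8, 41.8 and 21.8 TPM in shLAMP5 1 to 4 (log2 fold change 1.21, SE 0.49, limma adjusted p 0.541). Only shLAMP5 1 overlapped the shNT libraries. H2BC4 measured 9.59 and 4.82 TPM in shNT, and 3.97, 15.4, 15.7 and 3.55 TPM in shLAMP5. Here shLAMP5 2 and 3 lay above both shNT libraries while shLAMP5 1 and 4 lay below both, and the log2 fold change was 0.17 (SE 0.61). The other H2B genes (H2BC11, H2BC13, H2BC15, H2BC18 and H2BC21) stayed between 0.445 and 12.1 TPM and were all higher in shNT 1 than in shNT 2.

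H3 and H4 genes differed widely between libraries of a group. H3C4 measured 12 and 1.85 TPM in shNT 1 and 2, against 2.87, 33.0, 20.4 and 3.90 TPM in shLAMP5 1 to 4. Its log2 fold change of 0.83 (SE 0.97, limma adjusted p 0.828) became -0.26 without shNT 2 and 1.93 without shNT 1. H3C12, at 3.01 and 1.15 TPM in shNT and 0.592, 8.04, 0.656 and 1.22 TPM in shLAMP5, and H3C13, at 2.56 and 1.10 TPM in shNT and 0.643, 4.53, 0.603 and 0.544 TPM in shLAMP5, were high in shLAMP5 2 alone. H3C14 and H3C15 held the same values in all 6 libraries, between 0.272 and 2.18 TPM. They are near-identical copies whose reads cannot be assigned to one of them. Counts of genes given here include both, although they are not separate measurements.

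H4C3 measured 10.8 and 2.24 TPM in shNT 1 and 2, against 2.52, 35.0, 3.15 and 1.87 TPM in shLAMP5 1 to 4. In shLAMP5 2 it stood 15.9-fold above the mean of shLAMP5 1 and 4, and the 2 shNT libraries differed 4.83-fold, while its log2 fold change was 0.01 (SE 1.01, with a 95% interval from -2.32 to 2.34). H4C11 also had shLAMP5 2 highest and shNT 1 next, at 15.2 and 4.44 TPM in shNT and 5.67, 33.6, 5.01 and 6.45 TPM in shLAMP5. H4C8, at 5.67 and 1.46 TPM in shNT and 3.14, 17.5, 9.91 and 3.63 TPM in shLAMP5, was also higher in shLAMP5 3 than in shLAMP5 1 and 4. H4C16 stayed between 0.689 and 3.23 TPM. All 4 H4 genes tested were highest in shLAMP5 2. Their 4 log2 fold changes were positive, but H4C3 turned under quantile normalization, H4C3 and H4C11 turned without shNT 2 and without shLAMP5 2, and with library weights 1 of the 4 stayed positive.

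**Figure D1:**
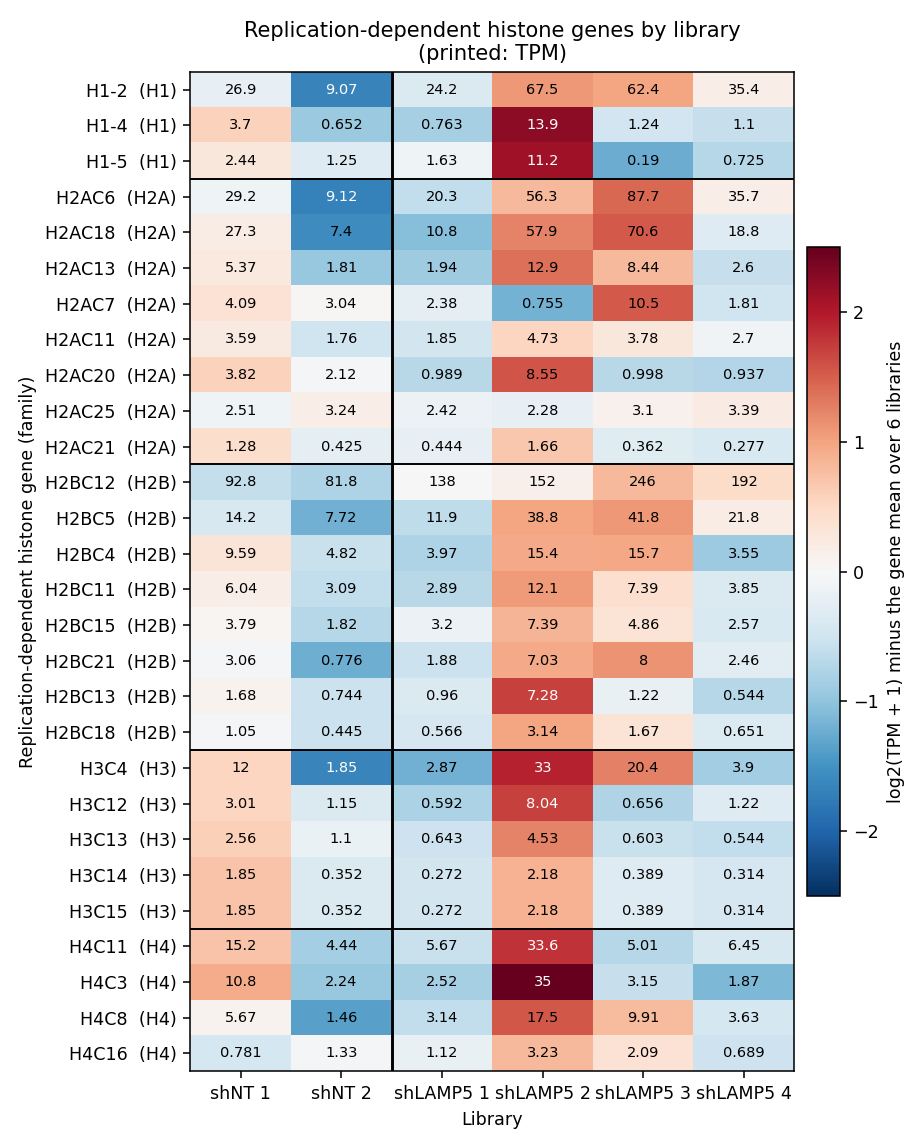
Each row is 1 of the 28 replication-dependent histone genes tested and each column 1 library. Printed numbers are TPM, and the colour is log2(TPM + 1) minus the mean of the gene over the 6 libraries. The column of shLAMP5 2 is red in most rows, and shLAMP5 3 is red in H1-2, H2AC6, H2AC18, H2BC12 and H2BC5 but not in H1-4, H4C3 or H4C11.

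The order of the libraries recurred across the class. In 26 of the 28 replication-dependent genes (92.9%) shNT 1 lay above shNT 2, where 43.0% of all tested genes did. The exceptions were H4C16 and H2AC25, which measured 2.51 and 3.24 TPM in shNT and 2.42, 2.28, 3.10 and 3.39 TPM in shLAMP5. For the 28 genes the median difference was 0.83 on the log2 scale. shLAMP5 2 was the highest library for 20 of the 28 (71.4%, against 13.7% of all tested genes), including all 5 H3 and all 4 H4 genes, and shLAMP5 3 for 7 (25.0%, against 25.4%). Set against the mean of shLAMP5 1 and 4, the median was 1.48 higher in shLAMP5 2 and 0.60 higher in shLAMP5 3. Other coding genes with short transcripts (under 800 bases) and over 55% GC, 80 in all, had medians of 0.02, -0.03 and 0.03 for these 3 differences. The replication-dependent genes tested had a median transcript length of 651 bases and a median GC content of 58.5%. The length and GC classes were chosen after the values were seen.

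The replication-dependent genes did not all share 1 order, and shLAMP5 3 separated them. With members divided, after their values were seen, by whether shLAMP5 3 lay above shNT 1, 17 did and 11 did not. The 17 include H1-2, H2AC6, H2AC18, H2BC12, H2BC4, H2BC5, H2BC21, H3C4 and H4C8, and they summed to 248 and 141 TPM in shNT 1 and 2 and to 234, 492, 604 and 335 TPM in shLAMP5 1 to 4. The 11 are H1-4, H1-5, H2AC20, H2AC21, H2BC13, H3C12, H3C13, H3C14, H3C15, H4C3 and H4C11, and they summed to 48.2 and 14.8 TPM in shNT and to 14.8, 128, 14.2 and 14.3 TPM in shLAMP5. In this second set shNT 2, shLAMP5 1, shLAMP5 3 and shLAMP5 4 were nearly level, shNT 1 was higher and shLAMP5 2 higher still. The division was made on these values, so the sums describe it and test nothing.

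Of the 10 tested genes whose annotated transcript runs over 100 bases past the stem-loop, 8 had shLAMP5 3 above shNT 1. Those that did not were H3C14 and H3C15, which hold the same values in every library. Among the 4 whose transcript ends within 100 bases of it, 2 did (H2AC13 and H2AC18), and H2BC13 and H4C11 did not. The 14 genes with no stem-loop in their models, some of which may stop short of it, were split 7 and 7. Summed over the 10 long transcripts, the level was 53.4 and 20.7 TPM in shNT and 35.0, 106, 122 and 52.4 TPM in shLAMP5 1 to 4. Over the 4 short ones it was 49.5 and 14.4 TPM in shNT and 19.4, 112, 85.3 and 28.4 TPM in shLAMP5. Both sums were high in shLAMP5 2 and 3.

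Genes that share a promoter head to head did not always share an order. H2BC21 and H2AC20, whose starts lie 236 bases apart on chromosome 1 in the sequence printed for H2BC21, parted in shLAMP5 3: H2BC21 measured 3.06 and 0.776 TPM in shNT and 1.88, 7.03, 8 and 2.46 TPM in shLAMP5, while H2AC20 was at 0.998 TPM there. Relative to shNT 1, shLAMP5 3 was 2.62-fold for H2BC21 and 0.261-fold for H2AC20. H2BC4 and H2AC6, with starts 246 bases apart on chromosome 6, parted in shLAMP5 4, at 3.55 and 35.7 TPM. H2BC11 and H2AC11, 248 bases apart, kept the same order of their highest libraries: H2AC11 measured 3.59 and 1.76 TPM in shNT and 1.85, 4.73, 3.78 and 2.70 TPM in shLAMP5, and H2BC11 6.04 and 3.09 TPM in shNT and 2.89, 12.1, 7.39 and 3.85 TPM in shLAMP5. In H2BC13 and H2AC13, 244 bases apart, shLAMP5 3 measured 1.22 and 8.44 TPM.

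The median log2(TPM + 1) of the 9 variant genes lay between 5.83 and 6.52 in the 6 libraries, against 1.49 to 3.43 for the 28 replication-dependent genes. The median difference between shNT 1 and shNT 2 was 0.05 for variants and 0.83 for replication-dependent genes. H2AZ1, which encodes an H2A.Z protein, was the most abundant member with a row in the shNT libraries, at 536 and 556 TPM, and measured 400, 269, 185 and 315 TPM in shLAMP5 1 to 4. Each shLAMP5 library was under both shNT libraries, and shLAMP5 3 was lowest. Group means were 546 ± 13.7 TPM (SD, n = 2) for shNT and 292 ± 89.4 TPM (SD, n = 4) for shLAMP5. Its log2 fold change was -0.95 (SE 0.29, with a 95% interval from -1.62 to -0.28, limma unadjusted p 0.0113, adjusted p 0.505), and it lay between -1.12 and -0.75 with any 1 library left out. H2AZ2, which encodes the second H2A.Z protein, measured 194 and 211 TPM in shNT and 200, 145, 123 and 193 TPM in shLAMP5, with overlapping groups (log2 fold change -0.32, SE 0.24, adjusted p 0.714). H2AZ1 made up 73.4% and 72.5% of the TPM of this pair in shNT 1 and 2, against 66.6%, 65.0%, 60.2% and 62.0% in shLAMP5 1 to 4. The shares of the groups did not overlap.

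H2AX, the variant that is phosphorylated around DNA breaks, measured 87.5 and 72.6 TPM in shNT 1 and 2, against 45.5, 62.6, 35.5 and 56.0 TPM in shLAMP5 1 to 4. The groups did not overlap, and the lowest library was again shLAMP5 3. Its log2 fold change was -0.70 (SE 0.26, with a 95% interval from -1.29 to -0.10, limma unadjusted p 0.0273, adjusted p 0.524). MACROH2A1, a large H2A variant of silent chromatin, measured 425 and 354 TPM in shNT and 318, 254, 428 and 360 TPM in shLAMP5. H2AJ, an H2A variant that differs little from canonical H2A, measured 16.1 TPM in both shNT libraries and 19.6, 28.4, 19.7 and 15.3 TPM in shLAMP5. Both had overlapping groups, with log2 fold changes of -0.22 (SE 0.23) and 0.31 (SE 0.25).

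H3-3A and H3-3B encode the same H3.3 protein. H3-3A measured 196 and 213 TPM in shNT and 249, 153, 190 and 215 TPM in shLAMP5 (log2 fold change -0.04, SE 0.22, 95% interval -0.55 to 0.48). H3-3B measured 76.7 and 72.5 TPM in shNT and 90.9, 44.5, 58.5 and 54.1 TPM in shLAMP5 (log2 fold change -0.31, SE 0.28, limma adjusted p 0.775). In both genes shLAMP5 1 was the highest library and shLAMP5 2 the lowest, and the groups overlapped.

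H1-10, a replacement linker histone, measured 28.2 and 24.8 TPM in shNT and 26.7, 51.9, 18.5 and 44.1 TPM in shLAMP5, so that shLAMP5 3 was lowest and shLAMP5 2 and 4 highest (log2 fold change 0.30, SE 0.39).

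**Figure D2:**
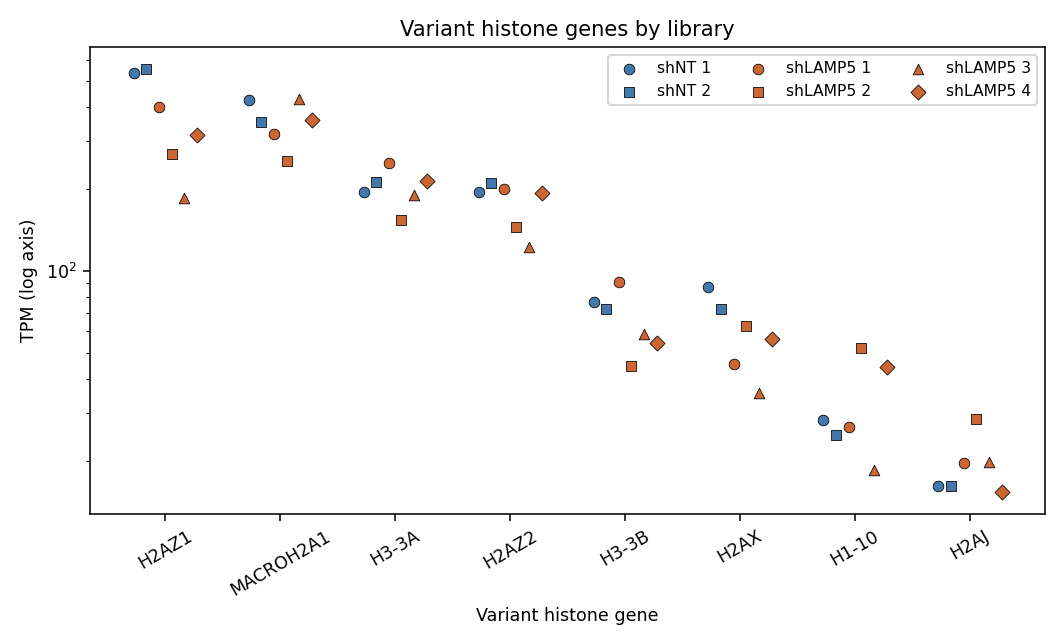
Each point is the TPM of 1 of 8 variant histone genes in 1 library, on a log axis, with shNT in blue and shLAMP5 in orange. All orange points lie below the blue ones for H2AZ1 and H2AX, and the colours overlap for the other 6 genes.

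Another 10 members did not reach 1 TPM in 2 libraries and were not tested. H1-1, H1-8, H2AC1, H2BC1 and H2BC12L were listed at 0 in every library. H1-7, H1-6 and MACROH2A2 stayed at or below 0.487 TPM. H1-3 reached 2.99 TPM and H2BC26 1.03 TPM, both in shLAMP5 2.

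**Figure D3:**
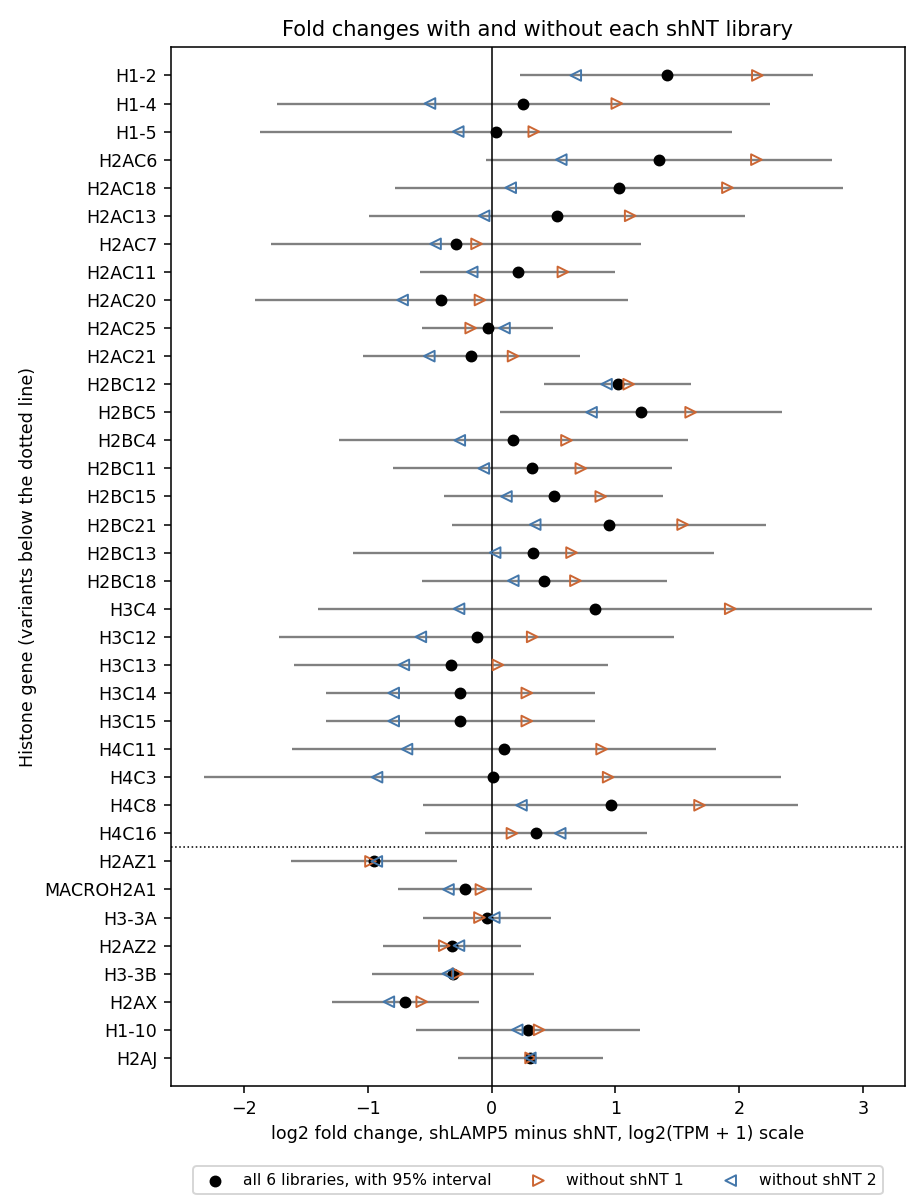
Log2 fold changes (shLAMP5 minus shNT, log2(TPM + 1) scale) of 36 histone genes tested, with 95% intervals from limma over all 6 libraries (black) and the value without shNT 1 or without shNT 2 (open triangles). For most replication-dependent genes the triangles lie far apart on either side of the black point, as for H1-2 (2.15 and 0.68), while for H2BC12 and the 8 variants drawn they lie close to it.

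The genes around histone supply were taken from lists chosen with earlier results of these data known. Of 35 genes of S phase and DNA replication, all 35 had negative values (median log2 fold change -0.90), 31 had every shLAMP5 value under both shNT values (13.5% of all tested genes did), and 0 passed the limma test after adjustment, while 29 were lower at an unadjusted p under 0.05 (5.25% of all tested genes were). Their summed level was 2665 and 3182 TPM in shNT 1 and 2, against 2065, 1472, 1023 and 1729 TPM in shLAMP5 1 to 4. This order was not that of the replication-dependent histones: shLAMP5 3 was lowest for 34 of the 35, and shNT 2 lay above shNT 1. MCM2, a helicase subunit that also binds H3-H4, measured 71.7 and 89.3 TPM in shNT and 39.2, 26.3, 17.9 and 35.1 TPM in shLAMP5 (log2 fold change -1.46, adjusted p 0.478). POLA2, a subunit of the primase complex, had a log2 fold change of -0.83 (adjusted p 0.491). With library weights these 2 of the 35 were called, at limma adjusted p values of 0.0469 and 0.0485. Whether these genes play a part in the histone values was not tested.

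**Figure D4:**
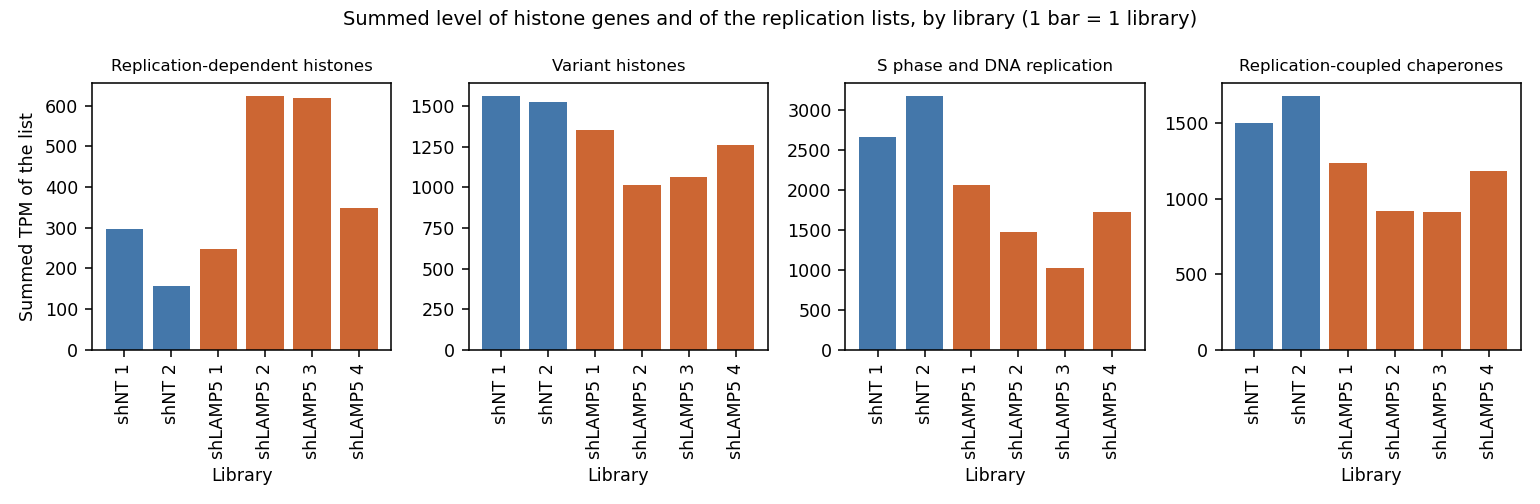
Bars give the summed TPM of a list in each library, with shNT in blue and shLAMP5 in orange, each panel on its own axis from 0. The replication-dependent histones with a row are highest in shLAMP5 2 and 3 (625 and 620 TPM), where the S phase genes are lowest (1472 and 1023 TPM).

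Of 25 genes of histone pre-mRNA processing and decay, 24 were tested, and 20 had negative and 4 positive values (median -0.42). Every shLAMP5 value was under both shNT values for 11 of them (against 13.5% of all tested genes) and above both for 1 (against 8.25%). The limma test was passed by 0, with or without library weights, while 3 were lower at an unadjusted p under 0.05 (against 5.25% of all tested genes). SLBP, the stem-loop binding protein, measured 106 and 123 TPM in shNT and 101, 58.4, 54.8 and 85.2 TPM in shLAMP5, below both shNT libraries in all 4 (log2 fold change -0.65, SE 0.28, limma adjusted p 0.554). SLBP is counted in the S phase list too. NPAT, the coactivator of histone transcription, measured 4.61 and 5.59 TPM in shNT and 5.98, 4.46, 4.56 and 4.95 TPM in shLAMP5 (log2 fold change -0.03). CASP8AP2, which acts in cleavage of the pre-mRNA, and LSM11, a subunit of the U7 particle, had log2 fold changes of -0.57 and -0.51. The smallest p values on the lower side were those of SNRPB (-0.61, adjusted p 0.505) and SNRPF (-0.64, adjusted p 0.528), Sm proteins shared with the spliceosome. On the higher side they were those of TUT7 (0.19, adjusted p 0.792), a uridylyltransferase of histone mRNA decay, and MIF4GD (0.13, adjusted p 0.916), a partner of SLBP.

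Replication-coupled chaperones hand new H3-H4 to replicated DNA. All 19, MCM2 among them as in the S phase list, had negative values (median -0.68; 18 with library weights and 17 without shLAMP5 2), 11 of them with every shLAMP5 value under both shNT values (against 13.5% of all tested genes), 9 were lower at an unadjusted p under 0.05 (against 5.25%) and 0 passed the limma test (1, MCM2, with library weights). ASF1B measured 40.5 and 42.5 TPM in shNT and 25.6, 17.3, 12.3 and 19.8 TPM in shLAMP5 (log2 fold change -1.15, adjusted p 0.491). CHAF1A, a subunit of chromatin assembly factor 1, had a log2 fold change of -0.82 (adjusted p 0.505), and ASF1A, the paralogue of ASF1B, -0.08 (adjusted p 0.944), with 35.0 and 36.4 TPM in shNT and 25.7 to 41.5 TPM in shLAMP5.

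Of 23 genes that deposit or exchange variants, 21 were tested, with 15 negative and 6 positive values (median -0.19). Every shLAMP5 value was under both shNT values for 5 of them (against 13.5% of all tested genes) and above both for 0 (against 8.25%). The limma test was passed by 0, with or without library weights, while 2 were lower at an unadjusted p under 0.05 (against 5.25% of all tested genes). These were HELLS (-1.03, adjusted p 0.524), a chromatin remodeller, and ACTL6A (-0.85, adjusted p 0.544), a subunit of several remodelling complexes. The H3.3 chaperones HIRA (-0.41) and DAXX (-0.03) and the H2A.Z chaperone ANP32E (-0.43) did not pass, with adjusted p values of 0.646, 0.975 and 0.772, and ATRX, at 0.385 to 1.86 TPM, was not tested. On the positive side the smallest p values were those of CHD2 (0.38, adjusted p 0.676) and DMAP1 (0.17, adjusted p 0.861). CENPA, the centromeric H3 variant that lies outside the rule, measured 28.5 TPM in both shNT libraries and 16.4, 10.7, 7.59 and 10.6 TPM in shLAMP5, with a log2 fold change of -1.31 (SE 0.28, adjusted p 0.464, and 0.0469 with library weights).

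Markers of other cells were looked at beside the histone pattern. Summed fibroblast and packaging cell markers lay between 30.8 and 32.8 TPM in shNT and between 27.7 and 39.4 TPM in shLAMP5, with COL3A1 at 0 throughout and 6 of 10 markers below 1 TPM in all libraries. Within that list COL1A1, at 2.75 and 0.696 TPM in shNT and 1.02, 5.91, 3.54 and 0.981 TPM in shLAMP5, was highest in shLAMP5 2 and 3 and higher in shNT 1 than in shNT 2. KRT8, at 7.88 and 7.13 TPM in shNT and 10.1, 13.0, 13.9 and 8.19 TPM in shLAMP5, was also highest in shLAMP5 2 and 3. FN1 did not share this order, at 1.32 and 0.841 TPM in shNT and 0.515, 0.424, 0.616 and 0.727 TPM in shLAMP5. It was lower in every shLAMP5 library than in both shNT libraries, and lowest in shLAMP5 2. KRT18 stayed between 16.8 and 23.6 TPM and was lowest in shLAMP5 2. Summed T cell markers, mostly CD3D, lay at 4.09 and 2.82 TPM in shNT and at 2.03 to 8.79 TPM in shLAMP5. B cell markers summed to at most 1.80 TPM, with CD79A up to 1.25 TPM, erythroid markers to at most 1.17 TPM and megakaryocyte markers to at most 1.48 TPM. Of the 15 myeloid markers 12 had positive values, with CSF3R (1.09, limma adjusted p 0.252) and FCER1G (1.76, adjusted p 0.491) above both shNT libraries in all 4 shLAMP5 libraries, and MPO (-0.80) and MEIS1 (-0.20) among the 3 negative ones. With library weights CSF3R and FCER1G were called, at adjusted p values of 0.0215 and 0.0345. The summed level of the 15 myeloid markers was 3516 and 7812 TPM in shNT and 2988 to 11876 TPM in shLAMP5, lowest in shLAMP5 2. The part of these differences in the histone values was not tested.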

How the data were processed

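Gene-level TPM values were made by the authors and deposited as 1 table with 6 library columns, per the submitters' processing notes with kallisto and the genome build hg19. The table states no unit: TPM was inferred because the fractional values of a library total 897026 to 912565. The sources used here give no kallisto version, transcript set or summing step. TPM holds no read number, so depth is unknown and counting error was not estimated. No coordinates of the table were used, and sequences come from RefSeq (GRCh38.p14) and GENCODE release 29.

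Identifiers were matched to symbols through current names and GENCODE 29 (35677 of 39771), and 1 member was matched through GENCODE 29 alone. Groups were taken from the sample titles. limma (version 3.58.1, R 4.3.3), with a mean-variance trend, was fitted to log2(TPM + 1) of all genes reaching 1 TPM in 2 or more libraries, with Benjamini-Hochberg adjustment and a threshold of 0.05. A fold change on this scale understates the change of low genes. The fit was tested on simulated data. Tables were made with pandas 2.3.3 and numpy 2.4.6 in Python 3.11.15, and figures with matplotlib 3.10.9.

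The genes named were LAMP5, every variant that passed the filter (1 is not reported here), in each replication-dependent family the 3 with the highest mean and the 2 with the smallest p per direction, 12 genes of histone supply, and up to 2 genes per direction from each list. H2AC11, H2AC21, H2BC11, H2BC13, H2BC15, H2BC18, H2BC21, H3C15, the untested members and single markers were named after their values were seen. The members and lists were chosen with earlier results of these data known. A list of 30 RNAs without a poly(A) tail had no row in the table and was not used. Alternatives were other pseudocounts, filters, scalings and variance models, library weights, leaving out libraries, and a replicate block.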

Additional observations from a re-analysis of the deposited data

Results flagged for a closer look

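Dixon's criterion at the 95% level was applied to TPM in 62 groups of 4 shLAMP5 libraries, 1 per named gene or sum. In 9 groups a library lay far from the other 3. For normally distributed values chance alone meets this criterion in about 1 in 20 groups. That rate may not hold for TPM, which were not put on a log scale here. The 62 groups share libraries and are not independent. In 8 of the 9 the library was shLAMP5 2, at 35.0 TPM for H4C3, 33.6 TPM for H4C11, 13.9 TPM for H1-4, 11.2 TPM for H1-5, 8.55 TPM for H2AC20, 8.04 TPM for H3C12, 4.53 TPM for H3C13 and 2.18 TPM for H3C14. The next highest shLAMP5 library lay at 3.15, 6.45, 1.24, 1.63, 0.998, 1.22, 0.643 and 0.389 TPM for these genes. In H2AC7 it was shLAMP5 3, at 10.5 TPM, with the next at 2.38 TPM.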

How the results depend on the processing

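No gene was called by limma, against 56 without a filter on low values, 210 with library weights and 16 with the title number as a replicate block. Only 2 numbers occur in both groups, and same-numbered libraries did not deviate together (correlations of -0.52 and -0.47). With only 2 shNT libraries the deviations of shNT 1 and shNT 2 mirror each other. These correlations therefore cannot decide whether the numbers pair the samples. With the replicate block the replication-dependent median was 0.64 and the variant median -0.23. Library weights, which lean most on shLAMP5 4, called 1 histone gene, H2BC12, and LAMP5 (-1.40). The count of replication-dependent genes above both shNT libraries in every shLAMP5 library was 1, and 1 to 14 with a library left out (14 without shNT 1, 4 without shLAMP5 1). It was 14 without shNT 1 and shLAMP5 2. The count of variants below was 2, and 2 to 4 with a library left out (4 without shLAMP5 1). These 2 counts were varied after seeing the data. With fewer libraries non-overlap is easier to meet, and no share of all genes is given for these settings.

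Of 440 values of 28 named histone genes under alternatives, 45, in 15 genes, had the opposite sign. With other named genes included, those that turned at a pseudocount of 0.1 TPM were H1-5 (-0.33) and H4C3 (-0.039), and at 0.5 TPM H1-5 (-0.080) and H4C3 (-0.015). Under quantile normalization they were H3-3A (0.049), H4C3 (-0.0030) and DAXX (0.0058). With library weights they were H1-4 (-0.37), H1-5 (-0.47), H2AC13 (-0.12), H2BC4 (-0.52), H3-3A (0.10), H3C4 (-0.12), H4C11 (-0.33), H4C16 (-0.059), H4C3 (-0.86), COL1A1 (-0.17) and NPAT (0.017). With the replicate block they were H2AC20 (0.17), H3C12 (0.37), H3C13 (0.14), H3C14 (0.034), DAXX (0.040), MIF4GD (-0.011) and NPAT (0.021). Without shNT 1 and shLAMP5 2 together they were H1-5 (-0.36), H2AC7 (0.24), H3-3A (0.027), H4C16 (-0.066), MACROH2A1 (0.046), ASF1A (0.021) and MIF4GD (-0.016). The cause was not tested.

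With 1 library left out, the genes whose value turned had these ranges: ASF1A -0.18 to 0.048, COL1A1 -0.16 to 0.98, DAXX -0.17 to 0.11, H1-4 -0.50 to 1.01, H1-5 -0.66 to 0.46, H2AC13 -0.060 to 1.12, H2AC7 -0.83 to 0.074, H2BC4 -0.26 to 0.61, H3-3A -0.15 to 0.087, H3C12 -0.70 to 0.33, H3C13 -0.78 to 0.052, H3C14 -0.79 to 0.29, H3C4 -0.26 to 1.93, H4C11 -0.68 to 0.89, H4C3 -0.93 to 0.94, KRT18 -0.36 to 0.019, MIF4GD -0.17 to 0.43 and NPAT -0.15 to 0.086.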
